A study of Rattus norvegicus with 24 samples.

Results

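Transcript levels of 9 membrane transporters that move organic anions and cations across the renal tubule were described in cystic rat kidneys. The transporters were Slc22a6, Slc22a8, Slc22a7, Slc22a12, Slc22a2, Slc22a4 and Slc22a5 of the SLC22 family, together with Slc47a1 and Slco4c1, which work beside them. They were chosen as a family and found by gene symbol and Entrez identifier. All 9 had a value in each sample, among 17334 genes with values, and all 9 were among the 12778 genes left after genes with low counts were removed.

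RNA of the whole left kidney was sequenced in 24 male PKD/Mhm (Cy/+) rats, a line with a spontaneous missense change in Anks6 that gives cystic kidneys in heterozygotes. Heterozygotes were recognised by palpation of the kidneys. Animals were 8 months old, and the treated animals had been dosed monthly for 6 months. The 6 control animals (Ctrl) were untreated, and no injection of vehicle is described for them. Another 6 were given CoCM, a conditioned medium taken from human skin ABCB5+ stromal cells kept in culture with THP-1-derived macrophages that had been stimulated with IFN-γ and LPS. The sources used here differ on whether this medium was given i.v. or i.p. The human ABCB5+ cells themselves went to 6 animals by intraperitoneal injection (i.p. ABCB5+, the i.p. group) and to 6 by intravenous injection (i.v. ABCB5+, the i.v. group). All groups are labelled as this cystic line, and no genotype of a single animal was available to check the labels.

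Organic anions and cations enter proximal tubule cells from the blood through transporters of the basolateral membrane and leave into the urine through others in the brush border. OAT1 (Slc22a6) and OAT3 (Slc22a8) take up anions such as p-aminohippurate, many drugs and uremic solutes in exchange for dicarboxylates. OCT2 (Slc22a2) takes up cations such as metformin and creatinine, and MATE1 (Slc47a1) passes them on to the urine in exchange for protons. URAT1 (Slc22a12) reabsorbs urate, and OCTN2 (Slc22a5) recovers carnitine from the filtrate.

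Total counts were between 9304630 and 14125457 per sample. All 8 markers of the proximal tubule were detected in every sample, and their summed level was between 1514 and 15319 TPM (a level scaled to transcript length and library total). Liver markers summed to at most 3.37 TPM, with Alb, the albumin gene, at 0 in 15 of 24 samples. In CoCM animal 39, i.p. ABCB5+ animal 38 and i.v. ABCB5+ animals 36 and 37, the 5 markers of injured tubules summed to between 458 and 819 TPM. The other 20 animals were between 7303 and 15354 TPM. These 4 kidneys stood apart from the rest, so the main comparisons of the transporters are given with and without them. The test over the 4 groups and some values of single genes and lists are given only with them. Their 3 fibroblast markers summed to between 41.8 and 155 TPM, against between 229 and 864 TPM in the others, and their 3 macrophage markers to between 11.9 and 35.03 TPM, against between 87.99 and 204 TPM. Whether these 4 kidneys carry the Cy allele was not tested, so their values may not describe cystic kidneys. Control animals had numbers from 1 to 24 and treated animals from 26 to 43, so order and treatment cannot be told apart. In whole tissue, fewer proximal tubule cells and less RNA per cell cannot be told apart.

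The stretches just upstream of 4 transporter genes are shown, since Slc22a2 and Slc22a12 varied together across animals, as did Slc22a8 and Slc22a5. Over the 20 animals other than those 4, no correlation of Slc22a8 with Slc22a2 was detectable, though in the 6 controls alone both were low in the same 3 animals. Each run holds the 250 bases before the start of the gene in RefSeq, 5′ to 3′ on the coding strand, with every CG pair in capitals. They come from the GRCr8 assembly (Slc22a8 at chr1:214927034-214927283, plus strand; Slc22a5 at chr10:38536073-38536322, minus strand; Slc22a2 at chr1:50711020-50711269, minus strand; Slc22a12 at chr1:213281381-213281630, minus strand).
Slc22a8: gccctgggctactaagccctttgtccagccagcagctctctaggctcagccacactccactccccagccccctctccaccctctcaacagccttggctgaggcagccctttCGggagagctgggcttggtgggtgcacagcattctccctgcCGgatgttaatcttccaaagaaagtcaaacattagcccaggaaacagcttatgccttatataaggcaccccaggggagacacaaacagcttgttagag
Slc22a5: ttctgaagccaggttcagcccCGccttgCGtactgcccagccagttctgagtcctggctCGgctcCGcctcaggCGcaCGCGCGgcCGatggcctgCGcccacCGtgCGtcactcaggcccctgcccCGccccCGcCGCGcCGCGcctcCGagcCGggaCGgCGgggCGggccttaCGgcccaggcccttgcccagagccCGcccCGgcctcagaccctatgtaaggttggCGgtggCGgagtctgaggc
Slc22a2: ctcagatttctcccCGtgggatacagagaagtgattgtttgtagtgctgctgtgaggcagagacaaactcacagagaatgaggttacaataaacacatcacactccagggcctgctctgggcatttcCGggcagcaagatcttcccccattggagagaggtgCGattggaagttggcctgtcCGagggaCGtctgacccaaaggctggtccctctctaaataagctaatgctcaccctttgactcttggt
Slc22a12: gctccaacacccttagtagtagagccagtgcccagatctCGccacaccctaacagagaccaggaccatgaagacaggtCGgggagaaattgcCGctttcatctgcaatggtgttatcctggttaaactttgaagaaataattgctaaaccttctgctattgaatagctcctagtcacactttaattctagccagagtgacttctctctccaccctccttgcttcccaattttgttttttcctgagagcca

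The upstream run of Slc22a5 held 28 CG pairs, more than 92.9% of the 27457 promoters in the table. Those of Slc22a8, Slc22a12 and Slc22a2 held 2, 3 and 5, at or below the median of 6. Of the other transporters, Slc22a4 had 22, Slco4c1 had 17 and Slc22a7 had 3. Slc22a6 and Slc47a1 were not matched in the table. Thus Slc22a8 and Slc22a5, which varied together, differed most in CG content. Slc22a2, Slc22a12 and Slc22a7 were below the median, with Slc22a2 close to it, whereas Slco4c1, which varied with them, was above it. Whether CG content goes with the correlations was not tested.

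The effect of the treatments on the transporters was assessed by comparing each treated group with Ctrl. In CoCM, 8 of 9 transporters had a higher fitted mean than Ctrl (51.4% of all genes), and the median log2 fold change was 0.31, against 0.0088 over all genes tested. After adjustment over all genes, 0 of 9 were below 0.05 in edgeR, where 0.00783% of all genes were called, and 0 of 9 were below 0.05 before adjustment (11.9% of all genes). In the i.p. group, all 9 had a higher fitted mean (51.0% of all genes) and the median was 0.35, against 0.0037 over all genes. Here 0 of 9 passed after adjustment (0.0% of all genes) and 0 before (1.77% of all genes). In the i.v. group, all 9 had a higher fitted mean (52.6% of all genes) and the median was 0.94, against 0.013 over all genes. None of the 9 passed after adjustment (0.0% of all genes), and 3 were below 0.05 before adjustment (5.78% of all genes, and 4.44% with a higher mean), namely Slc22a7, Slc22a4 and Slc22a12. DESeq2 called 0 of 9 in each of the 3 comparisons (0.634%, 0.0% and 0.00783% of all genes), with 0, 0 and 4 below 0.05 before adjustment (13.5%, 2.17% and 7.58% of all genes). The 3 comparisons share the same control animals and are not independent of each other.

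These values were also computed without the 4 kidneys that stood apart. Without animals 36 to 39, the median log2 fold change of the 9 transporters was 0.04 in CoCM, 0.13 in the i.p. group and 0.03 in the i.v. group, and 0 of 9 were below 0.05 before adjustment in any of them (16.9%, 1.39% and 1.23% of all genes). A higher fitted mean was then left for 5 of 9 in CoCM, 5 of 9 after i.p. injection and 7 of 9 after i.v. injection, against 49.3%, 50.1% and 48.3% of all genes. The unadjusted count of 3 in the i.v. group was 0 without i.v. ABCB5+ animal 37, 1 without animal 36 and 7 without Ctrl animal 24, while the share of all genes was 1.37%, 1.95% and 9.72%. It was between 1 and 6 when any other animal was left out, at 1 without Ctrl animal 1, 12 or 18, at 5 without i.v. ABCB5+ animal 28 and at 6 without i.v. ABCB5+ animal 42. In the exact permutation test over the 924 ways to divide 12 animals, which can reach 0.00216, the smallest unadjusted two-sided p-value over the 9 transporters was 0.199 in CoCM, 0.171 in the i.p. group and 0.0693 in the i.v. group. For none of them did the ranges of a treated group and Ctrl fail to overlap, as they did for 1.38%, 0.047% and 0.11% of all genes.

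**Figure D1:**
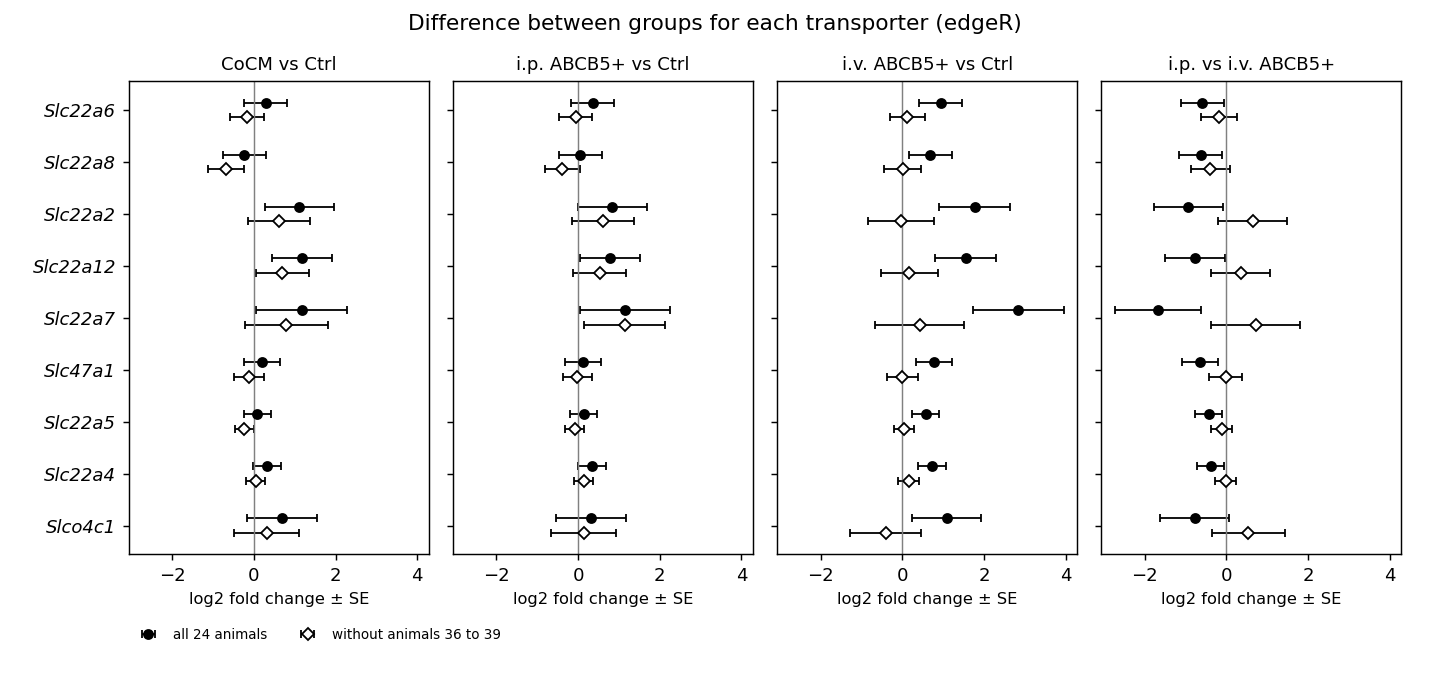
Log2 fold change ± SE (edgeR, x axis) of each of the 9 transporters (y axis) in the 4 comparisons, for all 24 animals (filled circles) and without animals 36 to 39 (open diamonds). In the i.v. group against Ctrl the filled circles lie between 0.57 and 2.84 and the open diamonds between −0.40 and 0.42.

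For the route of injection, the i.p. group was set against the i.v. group. All 9 transporters had a lower fitted mean after i.p. injection (49.8% of all genes had a higher one), with a median log2 fold change of −0.66, against −0.0006 over all genes. After adjustment 0 of 9 were below 0.05 (edgeR, 0.0% of all genes), and before adjustment 0 as well (2.14% of all genes). DESeq2 gave 0 (0.00783% of all genes) and 0 (2.82%). Without animals 36 to 39 the median was −0.02, 4 of 9 were higher after i.p. injection (49.9% of all genes), and 0 of 9 were below 0.05 before adjustment (1.13% of all genes). None of the 9 was without overlap between the routes (0.0626% of all genes). The smallest exact permutation p-value was 0.29 (two-sided, unadjusted). The test over the 4 groups called 0 of 9 (edgeR, 0.0% of all genes) and 0 of 9 before adjustment (4.71% of all genes), with adjusted p-values of 0.817 for 8 transporters and 0.859 for Slco4c1. There DESeq2 gave 0 (0.0783% of all genes) and 0 (7.02%).

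The anion exchangers of the basolateral membrane had the highest medians of the 9 in TPM over all 24 kidneys, whereas within CoCM and the i.p. group Slc22a8 ranked below Slc22a2. Slc22a6 (Entrez 29509, chromosome 1) was between 105 and 442 TPM in Ctrl (median 205, n = 6), between 155 and 610.2 in CoCM (median 218), between 142 and 587 in the i.p. group (median 267) and between 157 and 735 in the i.v. group (median 391). The 4 kidneys that stood apart held its 4 highest values of all 24. All groups overlapped, and within Ctrl 3 animals lay at or below 130.4 TPM and 3 at or above 279 TPM. The log2 fold change was 0.29 ± 0.52 (SE) in CoCM, 0.35 ± 0.52 in the i.p. group and 0.94 ± 0.53 in the i.v. group, with edgeR adjusted p-values of 0.803, 0.978 and 0.673. Leaving out animals 36 to 39 gave −0.17 ± 0.41, −0.06 ± 0.41 and 0.12 ± 0.43. Part of the Slc22a6 and Slc22a8 loci is also annotated as Slc22a25 in RefSeq, so reads could be split between them.

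Slc22a8 (Entrez 83500, chromosome 1) was between 80.5 and 479 TPM in Ctrl (median 216), between 111 and 409 in CoCM (median 159), between 166 and 490.2 in the i.p. group (median 190.3) and between 89.3 and 592 in the i.v. group (median 386). CoCM without animal 39 and i.p. ABCB5+ without animal 38 were narrow, at 111 to 187 and 166 to 212 TPM, whereas Ctrl and i.v. ABCB5+ spread widely. It was the only transporter with a fitted mean below Ctrl in CoCM, at a log2 fold change of −0.24 ± 0.53 (SE, edgeR adjusted p = 0.842). In the i.p. and i.v. groups the values were 0.06 ± 0.53 and 0.69 ± 0.53 (adjusted p = 0.995 and 0.691). With animals 36 to 39 left out they were −0.68 ± 0.44, −0.39 ± 0.43 and 0.01 ± 0.46. Its ratio to Slc22a6 was the narrowest in Ctrl, at 0.767 to 1.26, and lay between 0.428 and 0.973 in CoCM.

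Slc22a7 codes for OAT2, a transporter of anions and cyclic nucleotides that is also prominent in liver, and Slc22a12 for the urate exchanger URAT1. Slc22a7 (Entrez 89776, chromosome 9) was low, between 0 and 3.52 TPM in Ctrl (median 0.385), between 0.064 and 4.81 in CoCM (median 1.62), between 0.222 and 4.49 in the i.p. group (median 1.76) and between 0.569 and 18.8 in the i.v. group (median 2.10). It rested on a median of 20 counts, with 0 counts in Ctrl animals 12 and 23 and at most 3 counts in 5 of 24 samples. The highest values were 18.8 and 10.7 TPM in i.v. ABCB5+ animals 37 and 36, and all 6 i.v. ABCB5+ animals lay above the mean of Ctrl on the log2 scale, with 2 above its range. The log2 fold change was 1.17 ± 1.11 (SE) in CoCM, 1.15 ± 1.11 in the i.p. group and 2.84 ± 1.11 in the i.v. group, with edgeR adjusted p-values of 0.622, 0.978 and 0.673. In the i.v. group the unadjusted edgeR p-value was 0.0181, the exact permutation p-value was 0.0693, and the fold change was 0.42 ± 1.09 without animals 36 to 39. Its locus overlaps Crip3, so its few counts are uncertain.

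Slc22a12 (Entrez 365398, chromosome 1) was between 20.2 and 271 TPM in Ctrl (median 78.1), between 30.8 and 462 in CoCM (median 178), between 54.3 and 247 in the i.p. group (median 173) and between 98.4 and 544 in the i.v. group (median 132). Ctrl animals 1, 12 and 23 were at 20.2, 26.9 and 38.001 TPM, and CoCM animal 40 at 30.8 TPM, whereas no i.v. ABCB5+ animal was below 98.4 TPM. The groups overlapped, since 3 of 6 Ctrl animals were between 118 and 271 TPM. For Slc22a12 the log2 fold change was 1.18 ± 0.74 (SE) in CoCM, 0.77 ± 0.73 in the i.p. group and 1.55 ± 0.74 in the i.v. group, with edgeR adjusted p-values of 0.491, 0.978 and 0.673. In the i.v. group the unadjusted value was 0.0485 in edgeR and 0.0758 in the exact permutation test. The fold changes without animals 36 to 39 were 0.70 ± 0.65, 0.53 ± 0.65 and 0.18 ± 0.69.

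The cation route spans Slc22a2 at the blood side and Slc47a1 at the urine side. Slc22a2 (Entrez 29503, chromosome 1) had the widest range of the abundant transporters, between 15.4 and 337 TPM in Ctrl (median 80.3), between 28.2 and 522 in CoCM (median 174), between 37.6 and 295 in the i.p. group (median 234) and between 80.5 and 790.2 in the i.v. group (median 148). I.v. ABCB5+ animals 36 and 37 were at 780 and 790.2 TPM, while the other 4 of that group were between 80.5 and 162 TPM. Over all 24 kidneys the highest value was 51.2 times the lowest, against 7.35 times for Slc22a8. Fitted log2 fold changes of Slc22a2 were 1.11 ± 0.85 (SE) in CoCM, 0.84 ± 0.85 in the i.p. group and 1.78 ± 0.87 in the i.v. group, with edgeR adjusted p-values of 0.557, 0.978 and 0.673. These values became 0.62 ± 0.76, 0.61 ± 0.76 and −0.03 ± 0.81 when animals 36 to 39 were left out.

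Slc47a1 (Entrez 360539, chromosome 10) was between 28.9 and 124 TPM in Ctrl (median 56.1), between 31.7 and 122 in CoCM (median 60.2), between 40.7 and 85.8 in the i.p. group (median 67.4) and between 46.5 and 175 in the i.v. group (median 79.2). All i.p. ABCB5+ values lay within the range of Ctrl. Fitted log2 fold changes of Slc47a1 were 0.19 ± 0.44 (SE) in CoCM, 0.12 ± 0.44 in the i.p. group and 0.78 ± 0.44 in the i.v. group, with edgeR adjusted p-values of 0.847, 0.981 and 0.673. Leaving out animals 36 to 39 gave −0.12 ± 0.37, −0.02 ± 0.37 and 0.0042 ± 0.39. The uptake and the exit side did not keep a fixed ratio, and Slc22a2 was between 0.534 and 5.26 times Slc47a1 in TPM.

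The carnitine transporter Slc22a5 and its neighbour Slc22a4, which codes for OCTN1, a carrier of ergothioneine, varied least. Slc22a5 (Entrez 29726, chromosome 10) was between 41.5 and 98.8 TPM in Ctrl (median 66.2), between 45.2 and 119 in CoCM (median 55.8), between 56.8 and 102 in the i.p. group (median 62.0) and between 47.0 and 134 in the i.v. group (median 93.9). Its lowest and highest animals differed 3.22-fold over the 24 kidneys. For Slc22a5 the log2 fold change was 0.08 ± 0.34 (SE) in CoCM, 0.13 ± 0.34 in the i.p. group and 0.57 ± 0.34 in the i.v. group (edgeR adjusted p = 0.917, 0.978 and 0.673). The values without animals 36 to 39 were −0.23 ± 0.23, −0.08 ± 0.23 and 0.03 ± 0.25. Slc22a4 (Entrez 64037, chromosome 10) was between 7.04 and 18.1 TPM in Ctrl (median 11.5), between 7.92 and 23.4 in CoCM (median 12.4), between 9.93 and 21.1 in the i.p. group (median 12.4) and between 10.5 and 27.8 in the i.v. group (median 16.6). The 4 kidneys that stood apart held the 4 highest values, as for Slc22a6. Its log2 fold change was 0.31 ± 0.34 (SE) in CoCM, 0.35 ± 0.34 in the i.p. group and 0.74 ± 0.34 in the i.v. group (edgeR adjusted p = 0.661, 0.978 and 0.673). In the i.v. group the unadjusted edgeR p-value was 0.0411, the exact permutation p-value was 0.115, and the fold change was 0.15 ± 0.25 without animals 36 to 39.

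Slco4c1 codes for a basolateral carrier of digoxin and thyroid hormones. It (Entrez 432363, chromosome 9) was between 0.336 and 12.4 TPM in Ctrl (median 1.75), between 0.546 and 9.11 in CoCM (median 4.68), between 1.13 and 5.92 in the i.p. group (median 3.87) and between 1.44 and 19.3 in the i.v. group (median 3.38). In CoCM the 3 lower animals were at or below 1.31 TPM and the 3 higher ones at or above 8.05 TPM. Ctrl animal 24 was at 12.4 TPM, while the other 5 controls were at most at 2.06 TPM. The log2 fold change was 0.69 ± 0.85 (SE) in CoCM, 0.31 ± 0.85 in the i.p. group and 1.09 ± 0.85 in the i.v. group (edgeR adjusted p = 0.704, 0.978 and 0.691). Without animals 36 to 39 the values were 0.32 ± 0.80, 0.13 ± 0.80 and −0.40 ± 0.87.

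**Figure D2:**
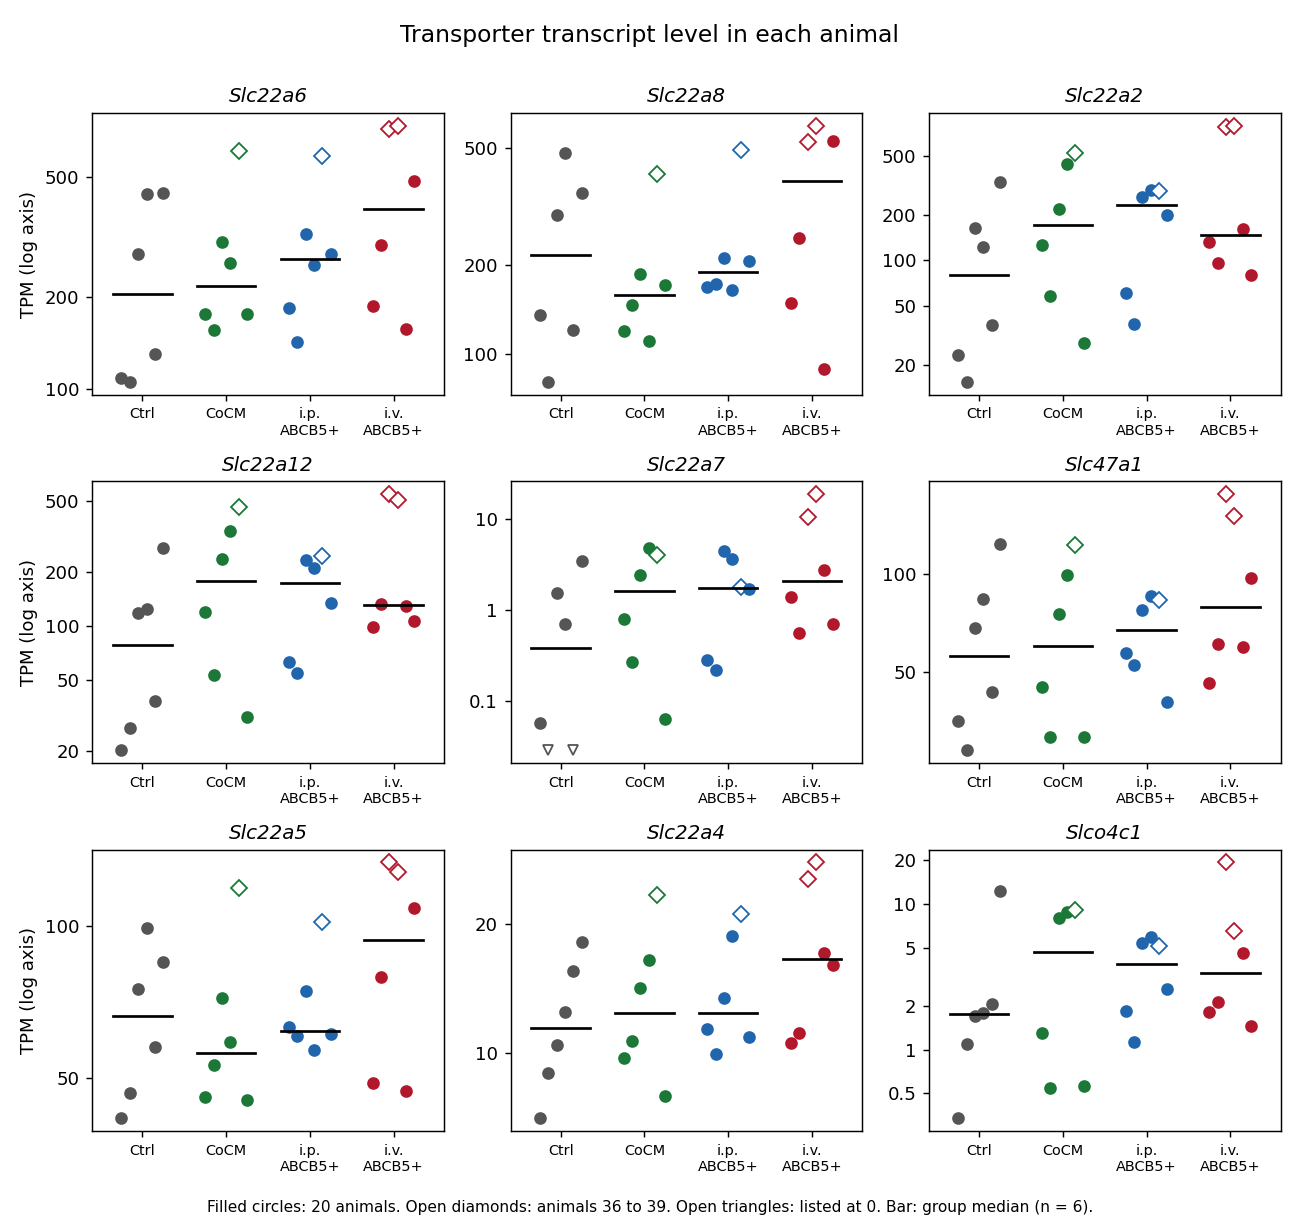
Level of each of the 9 transporters in TPM (y axis, log scale) in every animal by group (x axis, n = 6 each), with bars at the group medians, open diamonds for animals 36 to 39 and open triangles for values listed at 0. The groups overlap in every panel, and the open diamonds are the 4 highest values for Slc22a6 and Slc22a4.

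The order of the transporters by median TPM over the 24 kidneys was Slc22a6 (269), Slc22a8 (180.2), Slc22a2 (148), Slc22a12 (127), Slc47a1 (64.8), Slc22a5 (62.0), Slc22a4 (12.96), Slco4c1 (2.09) and Slc22a7 (1.47). The ranges of neighbours in this order overlapped, with 1 exception between Slc22a5 and Slc22a4, where all 24 animals had more Slc22a5. Within an animal, Slc22a6 was above Slc22a8 in 19 of 24 kidneys, Slc22a2 above Slc22a12 in 15 and Slc47a1 above Slc22a5 in 9. Slco4c1 was above Slc22a7 in 23 of 24. In Ctrl, Slc22a8 ranked first at 216 TPM and Slc22a6 second at 205 TPM, and 3 of 6 controls had more Slc22a8. In the i.p. group, Slc22a2 ranked second at 234 TPM.

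Whether the transporters varied together was examined in the 20 animals other than 36 to 39, on log2 CPM (counts corrected for library size). Of 36 pairs, 28 had an adjusted permutation p-value under 0.05 for Pearson's r and 29 for Spearman's rho, and r was between 0.12 and 0.97 with a median of 0.77. Within the 6 controls 0 of 36 passed by either measure, though the median r was 0.90. Within the 14 treated animals 21 passed by r and 20 by rho. No share over pairs of all tested genes is given here, so these counts do not set the transporters apart from other genes. All values come from the same libraries and the same tissue pieces, so the pairs share tissue makeup. Slc22a2, Slc22a12, Slc22a7 and Slco4c1 formed a close set. Slc22a2 and Slc22a12 had r = 0.97 and rho = 0.96 (permutation p = 1e-05 each, the smallest possible with 100000 resamples; adjusted 3.6e-05 and 4e-05), and r was 0.97 without the 2 animals farthest from the median. Slc22a7 and Slc22a2 had r = 0.97 and rho = 0.98 with the same p-values, and r = 0.97 without 2 animals. The ratio of Slc22a2 to Slc22a12 stayed between 0.573 and 1.56 in TPM, while either transporter alone varied at least 26.9-fold.

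Slc22a8 and Slc22a5 had r = 0.91 and rho = 0.86 (permutation p = 1e-05 each, adjusted 3.6e-05 and 4e-05), and r = 0.84 without 2 animals. Slc22a6 and Slc22a5 also had r = 0.91, with rho = 0.90, the same p-values, and r = 0.89 without 2 animals. By contrast, Slc22a8 and Slc22a2 had r = 0.33 and rho = 0.32 (permutation p = 0.159 and 0.174, adjusted 0.174 and 0.189), and r = 0.45 without 2 animals. With group means removed this r was 0.39. Within the 6 controls Slc22a8 and Slc22a2 had r = 0.89 and rho = 0.77 (exact permutation p = 0.0417 and 0.103, adjusted 0.0833 and 0.148 over 36 pairs), and r = 0.94 without 2 animals. The controls fell into 3 animals that were low in both (1, 12 and 23) and 3 that were high in both. Within the 14 treated animals the values were r = −0.13 and rho = −0.05 (permutation p = 0.666 and 0.854, adjusted 0.705 and 0.879), and r = 0.02 without 2 animals. This split was made after seeing the data, and the difference between controls and treated animals was not tested. Slc22a2 was between 0.153 and 3.94 times Slc22a8. CoCM animal 35 had 438 TPM of Slc22a2 and 111 TPM of Slc22a8, and i.v. ABCB5+ animal 43 had 80.5 and 527 TPM. The drug uptake carriers of the same membrane were thus in opposite order in these 2 kidneys. Slc22a6 varied with Slc22a2 as well, with r = 0.72 and rho = 0.65 to Slc22a2 (permutation p = 0.00049 and 0.00268, adjusted 0.000802 and 0.00439) and r = 0.76 without 2 animals. Whether these correlations differ from each other was not tested.

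**Figure D3:**
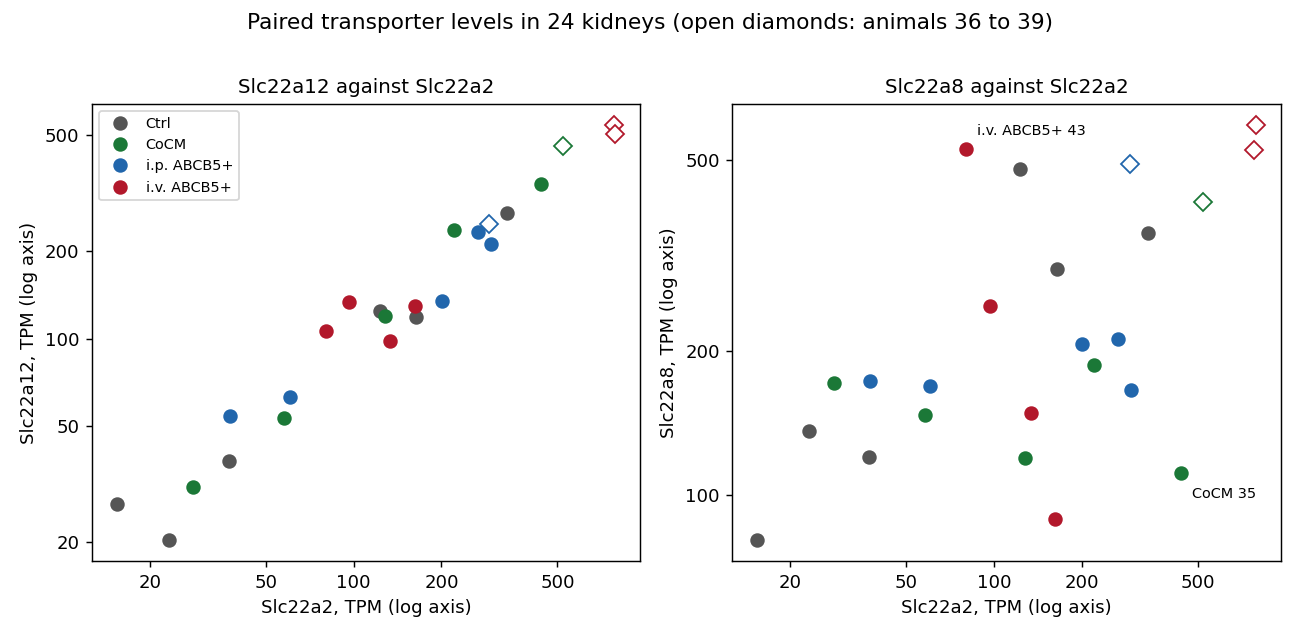
Slc22a12 (left) and Slc22a8 (right) against Slc22a2, in TPM on log axes, for 24 kidneys coloured by group with animals 36 to 39 as open diamonds. The left panel shows 1 narrow band in all groups, whereas on the right CoCM animal 35 (438 and 111 TPM) and i.v. ABCB5+ animal 43 (80.5 and 527 TPM) lie at opposite corners.

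Slc22a2 and Slc22a8 were also compared with 8 markers of the proximal tubule. With 5 of these both had a positive correlation that passed after adjustment, where Slc22a2 and Slc22a8 had rho = 0.66 and 0.72 with Slc34a1, 0.63 and 0.86 with Fbp1, 0.57 and 0.54 with Cubn, 0.75 and 0.53 with Lrp2, and 0.95 and 0.50 with Miox. The other 3, picked after their values were seen, are given with their p-values. Slc7a13, an amino acid transporter of the last segment of the proximal tubule, was between 5.23 and 1056 TPM in the 20 animals. Slc22a2 followed it with r = 0.98 and rho = 0.97 (permutation p = 1e-05 each, adjusted 4.12e-05 and 4.95e-05 over 99 pairs of a transporter with a marker or factor), and r = 0.98 without 2 animals. For Slc22a8 and Slc7a13 the values were r = 0.22 and rho = 0.21 (permutation p = 0.357 and 0.372, adjusted 0.388 and 0.409), and r = 0.38 without 2 animals. Slc22a8 followed Gatm, an enzyme of creatine synthesis in the tubule, with r = 0.98 and rho = 0.98 (permutation p = 1e-05 each, adjusted 4.12e-05 and 4.95e-05), and r = 0.96 without 2 animals. For Slc22a2 and Gatm the values were r = 0.20 and rho = 0.21 (permutation p = 0.4002 and 0.379, adjusted 0.431 and 0.412), and r = 0.01 without 2 animals. Slc5a2, the glucose transporter of the first segment, had r = −0.50 and rho = −0.54 with Slc22a2 (permutation p = 0.0255 and 0.0143, adjusted 0.0308 and 0.0191), and r = −0.48 without 2 animals. Among the controls alone this r was 0.07, so the negative relation was not seen there. In the 6 controls the values were r = 0.83 and rho = 0.77 for Slc22a8 and Slc7a13 (exact permutation p = 0.0667 and 0.103, adjusted 0.0943 and 0.141) and r = 0.89 and rho = 0.77 for Slc22a2 and Gatm (exact permutation p = 0.0375 and 0.103, adjusted 0.0714 and 0.141). In the 14 treated animals they were r = −0.20 and rho = −0.11 (permutation p = 0.515 and 0.714, adjusted 0.56 and 0.769) and r = −0.25 and rho = −0.12 (permutation p = 0.397 and 0.681, adjusted 0.446 and 0.741). These differences were not tested either. With Slc22a8, Slc5a2 had r = 0.51 and rho = 0.36 (permutation p = 0.0222 and 0.124, adjusted 0.0275 and 0.143), and r = 0.16 without 2 animals, so that relation rests on those 2. Among the controls alone the r of Slc22a8 and Slc5a2 was 0.33. Over all 99 pairs, 82 passed after adjustment, and r was between −0.50 and 0.98. Here too no share over pairs of all tested genes is given.

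Hnf4a, a transcription factor of proximal tubule identity, was between 47.1 and 302 TPM over the 24 kidneys. All 9 transporters varied with it. Slc47a1 did so most closely, with r = 0.95 and rho = 0.91 (permutation p = 1e-05 each, adjusted 4.12e-05 and 4.95e-05) and r = 0.92 without 2 animals. Slc22a8 did so least, with r = 0.66 and rho = 0.62 (permutation p = 0.00161 and 0.0043, adjusted 0.00261 and 0.00655) and r = 0.58 without 2 animals.

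**Figure D4:**
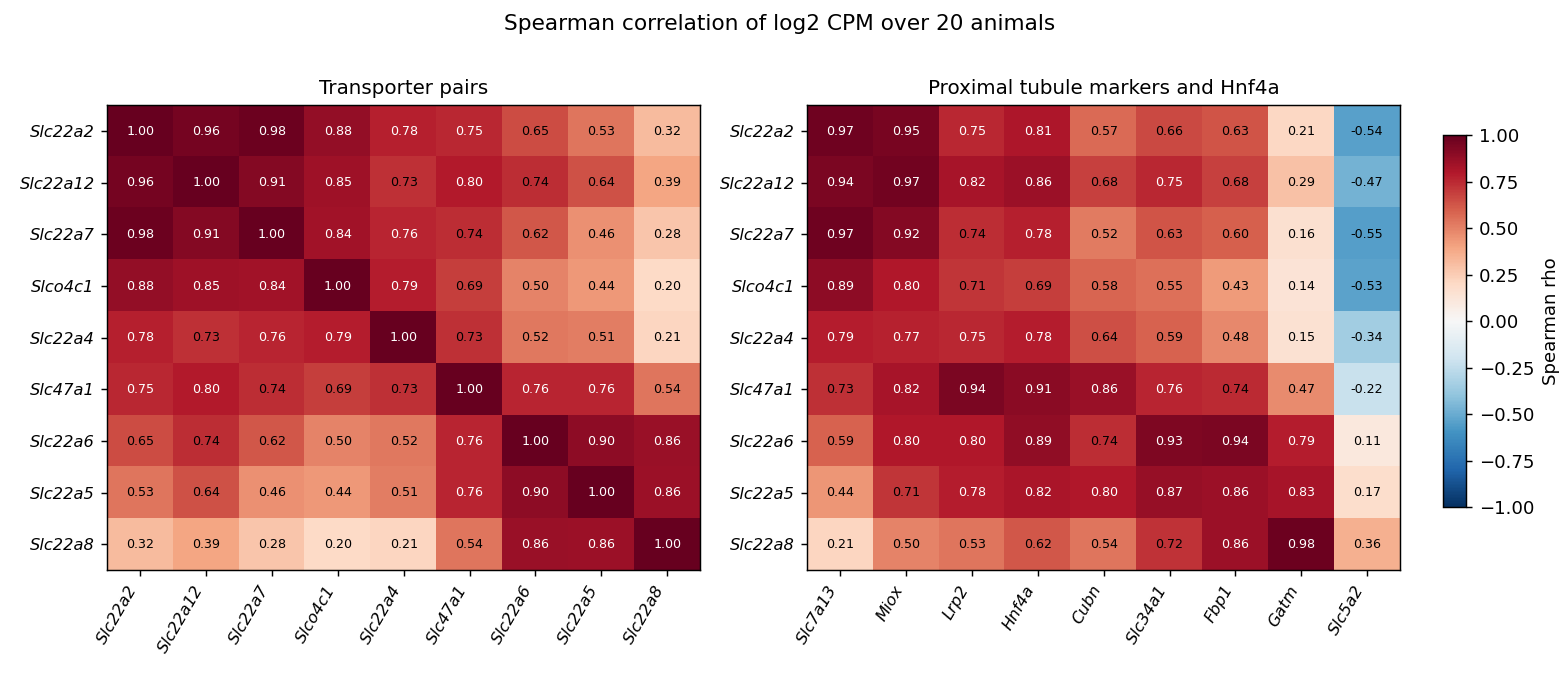
Spearman correlation of log2 CPM over 20 animals, printed and coloured from −1 to 1, between pairs of transporters (left) and of transporters (rows) with 8 proximal tubule markers and Hnf4a (right). Slc22a2, Slc22a12, Slc22a7 and Slco4c1 stand together beside Slc7a13 (0.89 to 0.97), and Slc22a8 stands beside Gatm (0.98).

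The genes whose pattern was most like that of each transporter were taken from 12702 tested genes with a symbol, by Spearman's rho over the same 20 animals, as a description. For Slc22a2 they were Akr1c12l1 (0.997), Mep1b (0.996) and Kap (0.994), where Mep1b is a brush border protease and Kap an abundant protein of kidney tubules. For Slc22a12 they were Nat8, Mep1a and Tmigd1 (0.977 to 0.981), and for Slc22a7 Rgn, Gucy1b2 and Mep1b (0.979 each). For Slc22a8 they were Gatm (0.977), Spp2 (0.959) and the zinc transporter Slc30a2 (0.940). For Slc22a6 they were Acsm2 (0.970), Dcxr (0.959) and Sord (0.956). For Slc22a5 they were Slc13a3 (0.940), the dicarboxylate carrier that supplies the exchange partner of the OATs, Slc12a8 and Ddx19a. Slc22a4 was nearest to the mitochondrial genes Gfm1 (0.932), Pdha1 (0.923) and Trap1 (0.913). Slc47a1 was nearest to Csf2rb, Lrrc8d and Gpc4 (0.950 to 0.959), and Slco4c1 to Prep, Bsdc1 and Ttc21b (0.934 to 0.937).

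Related genes were examined as lists. Of 27 other members of the SLC22, MATE and OATP families, 23 had values and 18 were tested. After adjustment 0 of 18 passed in any of the 4 comparisons (edgeR, 0.00783% of all genes in CoCM and 0.0% in the others). The smallest unadjusted p-value in CoCM belonged to Slc22a17, a receptor for the siderophore protein lipocalin 2, which was between 42.9 and 52.3 TPM in CoCM and between 35.6 and 52.5 TPM in Ctrl. Its log2 fold change was 0.28 ± 0.08 (SE, edgeR adjusted p = 0.224). In the i.p. group it was 0.14 ± 0.08 (adjusted p = 0.978), again the smallest of the list. After i.v. injection the smallest belonged to Slc22a13, an anion transporter of the brush border, which was at 48.9 and 22.5 TPM in animals 37 and 36 and between 0.849 and 1.959 TPM in the other 4. Its log2 fold change was 3.81 ± 0.90 (SE, edgeR adjusted p = 0.673), and 0.25 ± 0.41 without animals 36 to 39. Between the routes it was −3.06 ± 0.86 (adjusted p = 0.9999). Before adjustment 1 of 18 was below 0.05 in CoCM, 0 in the i.p. group, 2 in the i.v. group and 1 between the routes, against 11.9%, 1.77%, 5.78% and 2.14% of all genes.

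Of 13 genes of coupled transport, efflux and scaffolding, 0 passed after adjustment in any comparison (edgeR, 0.00783% of all genes in CoCM and 0.0% in the others). Before adjustment 2 were below 0.05 in CoCM (11.9% of all genes) and 3 in the i.v. group (5.78%). None were in the i.p. group (1.77%) or between the routes (2.14%). The smallest p-value in CoCM belonged to the lactate transporter Slc5a12, with a log2 fold change of −1.07 ± 0.36 (SE, edgeR adjusted p = 0.321) and −0.97 ± 0.36 without animals 36 to 39. In the i.p. group it was −0.54 ± 0.36 (adjusted p = 0.978), again the smallest. After i.v. injection the smallest belonged to Slc17a3, an anion exit carrier, at 1.06 ± 0.49 (adjusted p = 0.673), and between the routes to the efflux pump Abcb1a at −0.79 ± 0.42 (adjusted p = 0.9999). The median log2 fold change of the 13 was 0.29 in CoCM, 0.21 in the i.p. group and 0.78 in the i.v. group. Over all genes tested these medians were 0.0088, 0.0037 and 0.013. Without animals 36 to 39 the medians of the 13 were 0.0023, −0.0097 and 0.07, against −0.0044, 0.0002 and −0.0043 over all genes. The count below 0.05 before adjustment was then 2 in CoCM (16.9% of all genes) and 0 in the i.v. group (1.23%). The transcription factor Hnf4a had 0.85 ± 0.42 in the i.v. group (edgeR adjusted p = 0.673) and 0.11 ± 0.37 without animals 36 to 39.

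Proximal tubule markers other than Slc5a2 mostly varied beside the transporters, and the part of the markers in the result was not tested. Over the 20 animals Slc5a2 had r = −0.50 with each of Slc22a2, Slc22a7 and Slco4c1, and 0.51 with Slc22a8. Fold changes of the 8 markers are given here for the i.v. group only. All 8 had a higher fitted mean in the i.v. group, with a median log2 fold change of 0.81, and of −0.0082 without animals 36 to 39. The summed level of the 8 markers was between 1514 and 7032 TPM in Ctrl, between 2138 and 10594 in CoCM, between 2426 and 7770.3 in the i.p. group and between 2832 and 15319 in the i.v. group. The summed level of the 9 transporters was between 313 and 1644 TPM in Ctrl, between 492 and 2280.5 in CoCM, between 532 and 1830 in the i.p. group and between 670 and 2956 in the i.v. group. Without animals 36 to 39 the upper ends for the transporters were 1338, 1211 and 1424 TPM in the treated groups, all below the highest control at 1644 TPM.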

How the data were processed

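RNA of the left kidney of 24 rats was quantified. Per the submitters' processing notes, reads were trimmed with Trim Galore 0.6.4 and quantified with kallisto 0.4.6, with rn6 named as the build and the use of strand not given in the sources used here, and the study's methods also name a package of human gene models. For each animal the authors deposited estimated counts, which were not normalized, and TPM values, scaled by the authors to transcript length and library total. Of 17334 Entrez identifiers 17179 matched the RefSeq table of GRCr8, from which symbols, chromosomes and upstream sequences were taken.

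Estimated counts were rounded, filtered with filterByExpr by group and scaled by TMM. Groups from the labels were compared in edgeR 4.0.16 (R 4.3.3) with the quasi-likelihood F-test over all 24 samples, adjusted by Benjamini-Hochberg over 12778 genes, with a threshold of 0.05. The SE was taken as the log2 fold change over the root of its F value. The study names DESeq2, and DESeq2 1.42.0 was an alternative. Single transporters were also compared by two-sided exact permutation tests of mean log2 CPM (prior count 2) over animals (scipy 1.17.1). These 36 tests were not adjusted. Correlations used 100000 permutations, or all 720 orders within the 6 controls, a subset added after seeing the data. In the smallest library 3 counts, the upper limit for a gene at 0, equal 0.322 CPM. This limit covers counting error only, since reads without molecular identifiers are not independent molecules.

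The transporters, the related lists and the 4 animals left out were chosen with earlier results of these data known. All 9 transporters were named. A listed gene was named if it passed the threshold or had the smallest p-value of its list, and 3 genes most like each transporter were named by Spearman's rho. The factor Hnf4a was named, some listed genes and their results are not reported here, and Slc7a13, Gatm and Slc5a2 were picked from the markers after their values were seen. Each sample is a separate animal, and no batch is given. The code was tested on simulated data. Alternatives were DESeq2, median-ratio size factors, other count filters, only the groups compared, limma 3.58.1 with voom and sample quality weights, limma on log2(TPM + 1), and leaving out animals. The study's groups given other stem cells were not analysed here.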

Additional observations from a re-analysis of the deposited data

Results flagged for a closer look

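In 6 of 36 groups examined (9 transporters in 4 groups of 6 animals), 1 animal lay far from the others in TPM by Dixon's criterion. Chance meets it in about 1 in 20 groups if values are independent and normally distributed. The transporters share animals and TPM was not put on a log scale, so 6 of 36 cannot be set against that rate. CoCM animal 39 was high for 3 transporters, with 610.2 TPM of Slc22a6 (others 155 to 305), 408.8 TPM of Slc22a8 (others 111 to 187) and 118.9 TPM of Slc22a5 (others 45.2 to 72.0). In i.p. ABCB5+, animal 38 had 490.2 TPM of Slc22a8 (others 166 to 212). In i.v. ABCB5+, animal 36 had 19.34 TPM of Slco4c1 (others 1.44 to 6.50). These 3 animals are among the 4 kidneys with low injury markers. The remaining value was in an untreated kidney, where Ctrl animal 24 had 12.36 TPM of Slco4c1 (others 0.336 to 2.06). The same control had the highest Slc22a2 (337 TPM) and Slc22a12 (271 TPM) of its group.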

How the results depend on the processing

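The count of transporters called was 0 of 9 in each comparison under every alternative run, also when each animal was left out in turn (0 to 0). Few of all genes were called under these alternatives either. In CoCM the share was 1.4% with voom quality weights, 0.634% in DESeq2 and 0.242% without Ctrl animal 23. It was at most 0.0783% in all other fits. Before adjustment, the 3 below 0.05 in the i.v. group numbered 4 in DESeq2 (7.58% of all genes), 2 in limma on log2(TPM + 1) (3.24%) and 0 with voom quality weights (6.68%), which gave 2 in the i.p. group (10.3%). No paired analysis was possible because no animal number occurs in more than 1 group. The fit that required at least 10 counts in every sample gave no value for Slc22a7 and Slco4c1. Directions were kept under DESeq2, with size factors from median ratios, with all genes kept and with only the groups compared. The cause of the reversals below was not tested. Without animals 36 to 39, log2 fold changes against Ctrl became −0.17, −0.23 and −0.12 for Slc22a6, Slc22a5 and Slc47a1 in CoCM, −0.0556, −0.0796, −0.39 and −0.0169 for Slc22a6, Slc22a5, Slc22a8 and Slc47a1 in i.p. ABCB5+, and −0.0314 and −0.40 for Slc22a2 and Slco4c1 in i.v. ABCB5+. Between the routes they became 0.64, 0.72, 0.35 and 0.54 for Slc22a2, Slc22a7, Slc22a12 and Slco4c1. With voom quality weights they became −0.0391, −0.22 and −0.0246 for Slc22a6, Slc22a5 and Slc47a1 in CoCM, −0.0255 and −0.24 for Slc22a5 and Slc22a8 in i.p. ABCB5+, and −0.0474 and −0.26 for Slc22a5 and Slc22a8 in i.v. ABCB5+. Between the routes they became 0.75, 0.12, 0.022, 0.14, 0.0213, 1.12, 0.17, 0.45 and 0.74 for Slc22a2, Slc22a6, Slc22a5, Slc22a4, Slc22a8, Slc22a7, Slc47a1, Slc22a12 and Slco4c1. With log2(TPM + 1), Slc22a5 in CoCM became −0.0562, in limma and as a difference of means. Differences of mean log2 level without animals 36 to 39 became −0.16 and −0.0645 for Slc22a5 and Slc47a1 in CoCM, −0.11 and −0.0167 for Slc22a8 and Slc22a5 in i.p. ABCB5+, −0.0089 for Slc22a8 in i.v. ABCB5+, and 0.16, 0.0685, 0.23 and 0.35 for Slc22a7, Slc22a12, Slc22a2 and Slco4c1 between the routes. Leaving out 1 animal at a time gave 24 fits for each fold change. The direction changed in 17 of all these fits and was kept in the rest. The log2 fold change then ranged in CoCM from −0.16 to 0.50 for Slc22a6, −0.22 to 0.21 for Slc22a5, −0.67 to 0.0444 for Slc22a8 and −0.11 to 0.46 for Slc47a1. In i.p. ABCB5+ it ranged from −0.0602 to 0.57 for Slc22a6, −0.0862 to 0.26 for Slc22a5, −0.40 to 0.34 for Slc22a8 and −0.0384 to 0.39 for Slc47a1, and between the routes from −0.99 to 0.12 for Slco4c1.

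Depth limits Slc22a7, with at most 3 counts in 5 samples. The power to call differences of the size seen was not estimated. A treated group without these animals has 4 or 5 members.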
